A study of Saccharomyces cerevisiae with 7 samples.

Results

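Gluconeogenesis rebuilds glucose from carbon compounds that yeast cannot ferment, and the glyoxylate cycle is the detour around the decarboxylating steps of the tricarboxylic acid cycle that lets acetyl-CoA contribute net carbon to it. In budding yeast these genes are a textbook case of glucose repression. While glucose is plentiful the transcription of most of them is repressed. When glucose runs out, the Snf1 kinase and the zinc cluster activators Cat8 and Sip4, with Adr1, switch them on. The RNA of 10 such genes was followed, out of 6665 genes in the deposited tables. They were taken by name for their place in the pathway, by a rule that uses no measured value but with earlier results of these data known: ICL1, MLS1, MDH2 and CIT2 (glyoxylate cycle), ACS1 (acetyl-CoA supply), JEN1 and SFC1 (transport), PCK1 and FBP1 (gluconeogenesis), and IDP2 (cytosolic NADPH).

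RNA from 7 libraries of Saccharomyces cerevisiae strain BY4741 was examined, in 5 groups that share this haploid mating type a background with its deleted nutritional genes and synthetic complete (SC) medium. Cultures were started at OD600 0.2 from overnight cultures. Log-phase cultures (2 libraries) were collected in early log phase at OD600 0.5, and saturated cultures (2 libraries) once they had stopped increasing. For rapamycin, which blocks the TOR kinase complex that couples growth to nutrients, cells grown to early log phase were filtered and moved into fresh SC medium containing 100 nM of the drug, for 1 h (1 library) or 4 h (1 library). No library of cells moved to fresh medium without the drug was analysed here, so drug and fresh medium cannot be told apart. Cells spread on SC plates for 3 days gave the lawn (1 library), in which plate, age and density likewise cannot be told apart. The labels do not give the glucose left in any culture.

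Gene reads ran from 1019287 to 9438379 per library, with 1312256 in the lawn. Whether paired libraries are independent cultures is not labelled, so the p-values reflect only how far these samples spread, and that spread may be technical. All 5 transcripts specific to mating type a were read in each library. Per 1000000 gene reads, their summed level was 1330 and 2020 in log phase, 216 and 155 at saturation, 1160 and 1110 under rapamycin and 435 in the lawn. The 4 alpha-specific transcripts together had 32.5 to 125, and both alpha pheromone genes had 0 to 7 reads. The 3 meiosis genes IME1, SPO11 and NDT80 together ran from 12.3 in log phase to 51.1 in the lawn. Of the genes that BY4741 lacks, LEU2 had 0 or 1 read, MET15 (listed as MET17) 0 to 12 and URA3 0 to 44, the last at 4 h of rapamycin. HIS3, also lacking or disrupted in this strain, had 126 to 2262 reads, and their source was not tested. The part of any of these in the results below was not tested. Replicate 2 stood above replicate 1 for 10 of the 10 genes in log phase and for 9 of 10 in saturated cultures, with median log2 differences of 0.76 and 0.73. Among all genes tested the shares higher in replicate 2 were 49.3% and 42.9%. For this reason the counts of changed genes are also given below without a library where that moves them. The number called among all genes can move as well, so such counts are not a result about these genes alone.

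Levels of a gene across libraries are CPM, the reads per 1000000 gene reads after TMM scaling, which corrects for differences in RNA composition, and levels between genes are the authors' TPM, which also divides by length. ICL1 (YER065C, chromosome V, 285241 to 286914 in build R64), isocitrate lyase, which splits isocitrate and commits carbon to the glyoxylate cycle, had 19.6 and 27.4 CPM in log phase, then 43.1 and 59.0 at saturation, 28.4 and 24.7 at 1 h and 4 h of rapamycin, and 2006 in the lawn. MLS1 (YNL117W, chromosome XIV, 406358 to 408022), malate synthase, which joins the resulting glyoxylate to acetyl-CoA, had 2.53 and 9.32 in log phase, 83.2 and 169.6 at saturation, 56.6 and 39.4 under rapamycin, and 1619 in the lawn. Every library outside log phase held more MLS1 than either log-phase library, whereas the ICL1 CPM at 4 h of rapamycin lay between the log-phase values. By TPM, ICL1 at 1 h and 4 h (22.9 and 19.7) lay above both log-phase libraries (10.7 and 15.3).

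CIT2 (YCR005C, chromosome III, 120946 to 122328), the peroxisomal citrate synthase and a known target of the Rtg1-Rtg3 retrograde pathway, had 368 and 473 CPM in log phase, 2662 and 2317 at saturation, 2013 and 1228 under rapamycin, and 3974 in the lawn. MDH2 (YOL126C, chromosome XV, 81787 to 82920), the cytosolic malate dehydrogenase that turns malate into oxaloacetate, had 235.9 and 284 in log phase, 79.9 and 133.2 at saturation, 132.3 and 141.8 under rapamycin, and 205.7 in the lawn. CIT2 was thus higher in every library outside log phase, while the MDH2 CPM was highest in log phase. By TPM the lawn held the most MDH2 (244.1, against 190.9 and 234.3 in log phase).

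ACS1 (YAL054C, chromosome I, 42881 to 45022), the acetyl-CoA synthetase that activates acetate when glucose is absent, had 11.5 and 29.6 CPM in log phase, 55.4 and 194.7 at saturation, 89.7 and 127 under rapamycin, and 1103 in the lawn. JEN1 (YKL217W, chromosome XI, 22234 to 24084), the plasma membrane carrier of lactate and pyruvate, had 3.47 and 5.48 in log phase, 23.4 and 52.8 at saturation, 8.08 and 37.6 under rapamycin, and 1350 in the lawn. SFC1 (YJR095W, chromosome X, 609773 to 610741), which exchanges succinate from the glyoxylate cycle for fumarate across the inner mitochondrial membrane, had 0.631 and 1.65 in log phase (4 and 3 reads), 5.57 and 8.79 at saturation, 2.90 and 21.1 under rapamycin, and 398.4 in the lawn. Both carriers were several times higher at 4 h than at 1 h of rapamycin, a step that ICL1 and MLS1 did not show.

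PCK1 (YKR097W, chromosome XI, 631152 to 632801), phosphoenolpyruvate carboxykinase, the entry step of gluconeogenesis, had 4.73 and 9.32 CPM in log phase, 14.2 and 23.9 at saturation, 9.71 and 11.2 under rapamycin, and 678 in the lawn. FBP1 (YLR377C, chromosome XII, 873746 to 874792), fructose-1,6-bisphosphatase, the step that reverses phosphofructokinase, had few reads outside the lawn. Its reads numbered 0 and 4 in log phase, then 7 and 3 at saturation, 15 and 32 at 1 h and 4 h of rapamycin, and 300 in the lawn. A count of 0 in log-phase replicate 1 allows up to 3 reads, or 0.473 CPM, by the usual limit for a count of 0, which is lower than the end of a two-sided exact 95% interval (3.69 reads) and covers counting error only. IDP2 (YLR174W, chromosome XII, 504591 to 505829), the cytosolic NADP-dependent isocitrate dehydrogenase, had 14.4 and 15.9 CPM in log phase, 28.4 and 41.5 at saturation, 19.1 and 50.9 under rapamycin, and 593.5 in the lawn. For these 3 genes the lawn stood more than 10 times above every other library.

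**Figure D1:**
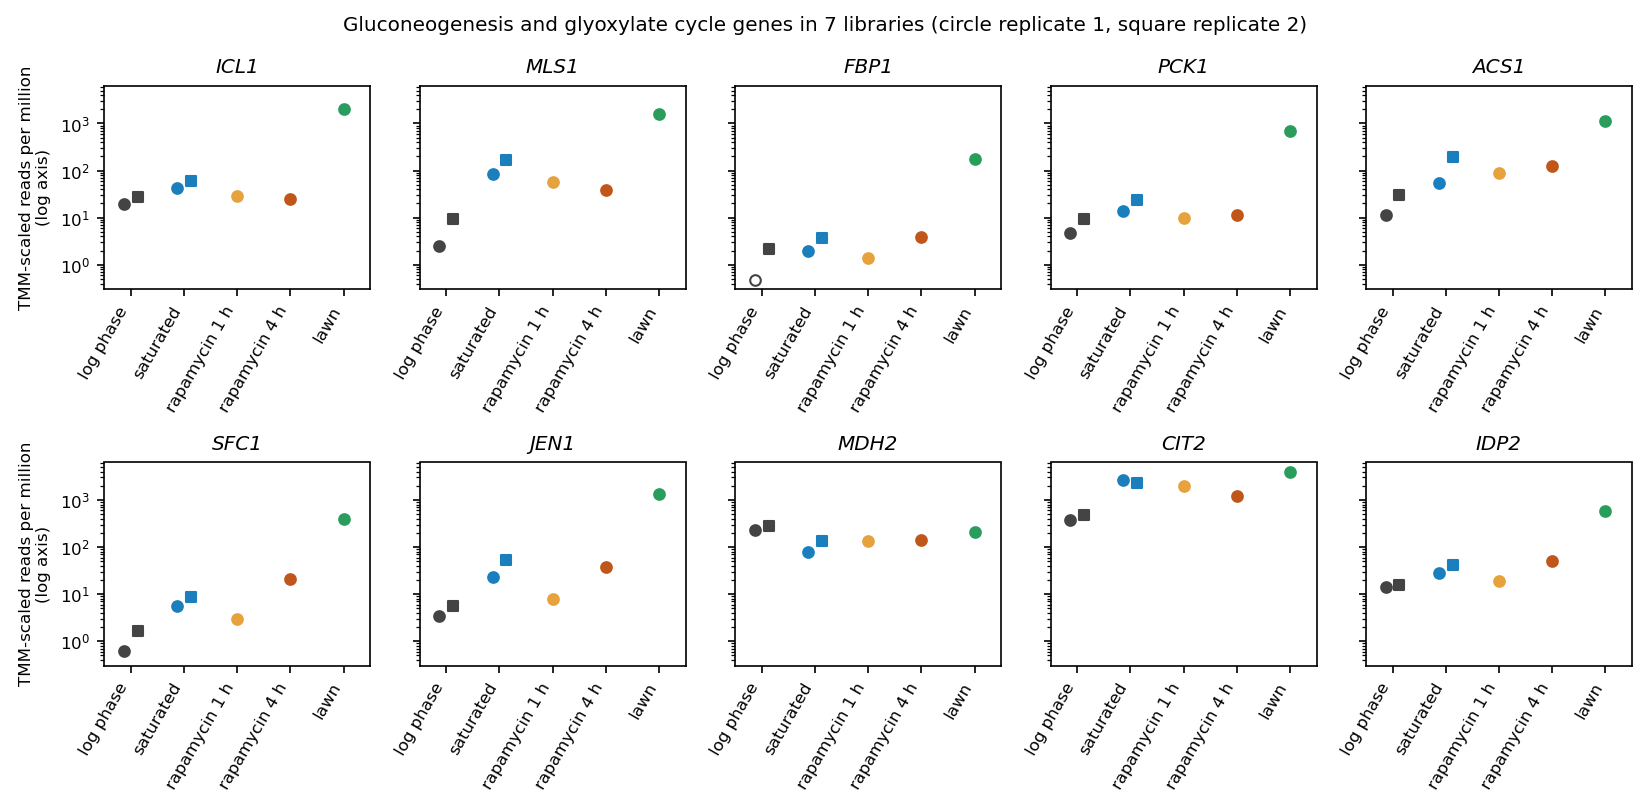
CPM after TMM scaling (log axis) of each of the 10 genes in log phase, saturated cultures, rapamycin for 1 h and 4 h, and the lawn; each point is a library, and the open point for FBP1 is a library with 0 reads drawn at its limit of 3 reads. The lawn is the highest library for 9 of the 10 genes, and MDH2 is the exception.

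In the order of TPM, log phase was led by CIT2 (244.2 and 320.1) and MDH2 (190.9 and 234.3). ICL1, ACS1 and IDP2 followed at 4.94 to 15.3, and FBP1, SFC1, JEN1, PCK1 and MLS1 lay between 0 and 5.29. The ranges of ICL1, ACS1 and IDP2 overlapped, as did those of JEN1, MLS1 and PCK1, so these orders are not resolved. Both saturated libraries gave the same order, CIT2 (1368 and 1282), MDH2, MLS1, ACS1, ICL1, IDP2, JEN1, PCK1, SFC1 and FBP1 (1.32 and 2.76). Under rapamycin CIT2 (1965 and 1185) and MDH2 (157.5 and 167) again led, with ACS1 next (56.6 and 79.2). In the lawn CIT2 led with 3866 TPM, followed by ICL1 (1612), MLS1 (1308), JEN1 (981), ACS1 (693), IDP2 (644), SFC1 (553.2), PCK1 (552.9), MDH2 (244.1) and FBP1 (227.9). The 95% counting intervals, which are exact Poisson intervals and cover counting error only, overlapped for ACS1 and IDP2, for SFC1 and PCK1, and for MDH2 and FBP1, so these neighbours are not separated. CIT2 ranked 10 among all genes of the lawn by TPM and 3 by reads, after a rank of 540 and 434 by TPM in log phase, and ICL1 went from 4985 and 4763 to 57. Together the 10 genes took 1.56% of the lawn's gene reads, 0.231% and 0.235% in saturated cultures, 0.276% and 0.203% under rapamycin, and 0.0624% and 0.0835% in log phase.

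In the lawn, 9 of the 10 genes rose against log phase, and their median log2 change was 6.59 against 0.04 over all genes. Of all 5827 genes tested, 20.7% were higher and 41.6% were called in either direction (edgeR quasi-likelihood test, Benjamini-Hochberg adjusted p under 0.05, as for every rise or fall named here). The largest rise was that of SFC1, with a log2 change of 8.77 ± 0.48 (SE, as after every log2 change), the sixth rank from the top among all genes tested. MLS1 (8.36 ± 0.71), JEN1 (8.34 ± 0.55) and FBP1 (8.31 ± 0.84) followed at ranks 13, 14 and 15. FBP1 rests on 300 lawn reads against 4 in log phase, a ratio of scaled reads of 362 with an exact 95% counting interval of 140 to 1340, and SFC1 on 674 against 7 (464, interval 224 to 1160). PCK1 rose by 6.73 ± 0.46, ICL1 by 6.44 ± 0.41, ACS1 by 5.83 ± 0.74 and IDP2 by 5.30 ± 0.35, that is 106, 86.9, 56.9 and 39.5 times. CIT2 rose by 3.24 ± 0.41 from its high log-phase level. For these 9 genes the lawn lay above each of the 6 other libraries, as it did for 16.4% of all genes. MDH2 lay at −0.34 ± 0.38, short of the threshold (edgeR, Benjamini-Hochberg adjusted p = 0.510), and at 0.09 with plain library totals. The lone lawn library has no replicate of its own and is assumed to vary like the log-phase and saturated pairs. The 9 rises passed in each of the 8 alternative settings, including the removal of any replicate, although the FBP1 change then ran from 6.33 to 12.84 as its 4 log-phase reads all lie in replicate 2 and the upper value is fitted against 0 reads.

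**Figure D2:**
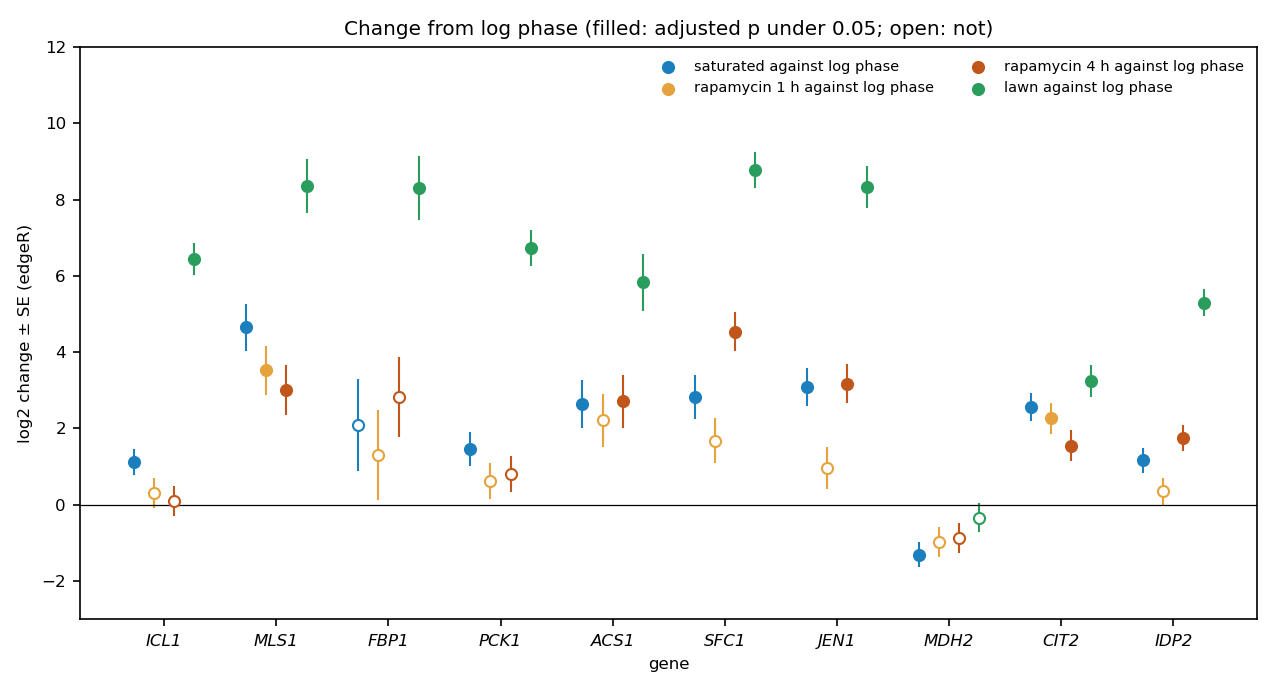
Log2 change of each gene against log phase with its standard error, for saturated cultures, both rapamycin times and the lawn; filled points passed the edgeR test at an adjusted p under 0.05 and open points did not. The lawn point is the highest for all 10 genes, and MDH2 alone lies below 0 in all 4 comparisons, although its lawn value turns to 0.09 with plain library totals.

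Of the liquid cultures, the saturated ones are the dense state to set beside the lawn, and 8 of the 10 genes were higher in the lawn when both were compared directly, where 5.05% of all genes were. The median log2 difference was 4.70, against −0.05 for all genes. FBP1 was higher by 6.22 ± 0.76, SFC1 by 5.95 ± 0.42, ICL1 by 5.32 ± 0.39, PCK1 by 5.27 ± 0.44 and JEN1 by 5.25 ± 0.48, and all 5 were among the 19 highest differences of the 5827 genes. IDP2 (4.14 ± 0.34), MLS1 (3.71 ± 0.58) and ACS1 (3.19 ± 0.67) were higher by less. MDH2 (0.98 ± 0.38) and CIT2 (0.67 ± 0.41) missed the threshold (edgeR, Benjamini-Hochberg adjusted p = 0.135 and 0.338), and both passed it with plain library totals, where the median of all genes moved to 0.69. By DESeq2 the call for FBP1 was lost (adjusted p = 0.0679), and without saturated replicate 2 MDH2 passed (1.40).

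In saturated cultures 8 of the 10 genes rose and MDH2 fell against log phase, with a median log2 change of 2.33 against 0.10 for all genes. In this comparison 27.9% of all genes rose and 25.1% fell, 53% in all. MLS1 rose most, by 4.65 ± 0.62, from 5.92 ± 4.81 to 126.4 ± 61.1 CPM (SD, n = 2 each). JEN1 (3.09 ± 0.49), SFC1 (2.82 ± 0.58), ACS1 (2.64 ± 0.64) and CIT2 (2.57 ± 0.37) formed a middle group. PCK1 (1.46 ± 0.44), IDP2 (1.16 ± 0.32) and ICL1 (1.12 ± 0.34) rose by less than 3 times. FBP1 stood at 2.09 ± 1.21 on 10 reads against 4 and missed the threshold (edgeR, Benjamini-Hochberg adjusted p = 0.177), which it passed without log-phase replicate 2 (6.62, a fitted value against 0 reads and so no bound) or saturated replicate 1 (2.68). MDH2 fell by 1.31 ± 0.32 on the log2 scale. The saturated and log-phase libraries did not overlap for the 8 risen genes (40.4% of all genes have both saturated libraries above both log-phase ones) or for MDH2 (37.3% have both below). Whether the small rises passed depended on which libraries were kept, although their log2 changes stayed positive. Fewer of all genes were called too when either log-phase replicate was left out. Without log-phase replicate 1 the genes called were MLS1, ACS1, JEN1 and CIT2, plus MDH2, as PCK1 (0.95), ICL1 (0.88), IDP2 (1.10) and SFC1 (1.98) no longer passed, and ICL1 and IDP2 also missed it when replicate 2 of log phase (1.27 and 1.15) or of the saturated pair (0.69 and 0.70) was left out. With plain library totals ICL1 (0.81) and PCK1 (1.16) did not pass.

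After 1 h of rapamycin 2 of the 10 genes rose, MLS1 by 3.52 ± 0.65 and CIT2 by 2.26 ± 0.41, where 9.18% of all genes rose. ACS1 (2.21 ± 0.69) just missed the threshold (edgeR, Benjamini-Hochberg adjusted p = 0.0523) and passed in 7 of 8 alternative settings. SFC1 (1.68 ± 0.60), FBP1 (1.31 ± 1.18), JEN1 (0.96 ± 0.54), PCK1 (0.61 ± 0.47), IDP2 (0.35 ± 0.35) and ICL1 (0.30 ± 0.39) did not pass, nor did MDH2 (−0.97 ± 0.39). The median log2 change of the 10 was 1.13, against 0.04 for all genes. Without log-phase replicate 1 only MLS1 was called, since CIT2 then had an adjusted p of 0.0603 in edgeR. Without log-phase replicate 2 the risen numbered 4, as they did without either saturated replicate, where MDH2 fell as well (−0.99).

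After 4 h of rapamycin 6 of the 10 had risen, where 14.8% of all genes had and 26.3% were called in either direction, and the median log2 change was 2.24 against 0.06. SFC1 rose by 4.53 ± 0.51, JEN1 by 3.17 ± 0.51, MLS1 by 3.00 ± 0.66, ACS1 by 2.71 ± 0.69, IDP2 by 1.76 ± 0.34 and CIT2 by 1.55 ± 0.41. ICL1 (0.10 ± 0.39), PCK1 (0.81 ± 0.47), FBP1 (2.82 ± 1.05) and MDH2 (−0.87 ± 0.39) did not pass. ICL1 therefore passed at neither time, whereas MLS1, the next enzyme of the cycle, passed at both. Whether reads of the similar gene DAL7, described below, were counted as MLS1 was not tested. Without log-phase replicate 1 the count was 4, since CIT2 and IDP2 then missed the threshold, and CIT2 also missed it without log-phase replicate 2. FBP1 passed in 5 of 8 alternative settings and ranged from 0.83 (log-phase replicate 1 left out) to 7.37 (its partner left out, so again against 0 reads). MDH2 fell without either saturated replicate (−1.03). Tested directly, 4 h differed from 1 h for SFC1 alone, higher at 4 h by 2.85 ± 0.47, where 5.29% of all genes were higher and 6.26% differed. JEN1 (2.21 ± 0.56) and IDP2 (1.42 ± 0.39) had edgeR adjusted p-values of 0.0538 and 0.0685, and JEN1 passed in 7 of 8 alternative settings. When any of the 4 replicates was left out, 2 to 4 genes were called.

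Against saturated cultures, 4 h of rapamycin had more SFC1 (1.71 ± 0.43) and no other called difference among the 10, where 7.57% of all genes were higher and 7.95% lower. The SFC1 call was lost without saturated replicate 1 (1.24) and by DESeq2 (1.62). MLS1 (−1.65 ± 0.64), ICL1 and CIT2 (−1.02 each, SE 0.41 and 0.44) had edgeR adjusted p-values of 0.112, 0.122 and 0.147. Among single removals, 6 genes were called without saturated replicate 2 and 2 with any other library left out, and MLS1 passed as lower in all 4. Both rapamycin times have 1 library each and take their spread from the pairs of the other groups.

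Several of these enzymes have isozymes in other compartments or with other regulation, and TPM ratios show how the balance moved. The isozyme of Acs1 is the cytosolic and nuclear Acs2, the acetyl-CoA synthetase used on glucose. Against log phase ACS2 fell at saturation, at 4 h of rapamycin (−1.32 ± 0.39) and in the lawn. At 1 h its change of −0.18 ± 0.37 did not pass. There were 0.0133 and 0.0391 ACS1 transcripts per ACS2 transcript in log phase, 0.531 and 2.56 at saturation, 0.125 and 0.390 at 1 h and 4 h of rapamycin, and 3.17 in the lawn. ACS1 thus exceeded ACS2 in the lawn and in saturated replicate 2, but not in saturated replicate 1. In saturated cultures ACS2 fell (log2 change −3.16 ± 0.33) and ACS1 rose (2.64 ± 0.64). In the lawn the ACS2 change was smaller (−1.23 ± 0.39, not called without either log-phase replicate) and the rise of ACS1 larger (5.83 ± 0.74).

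For malate synthase the partner gene is DAL7, which serves the breakdown of allantoin as a nitrogen source. MLS1 per DAL7 was 0.0952 and 0.262 in log phase, 1.42 and 6.43 at saturation and 78.2 in the lawn, but 0.109 at 1 h and 0.525 at 4 h of rapamycin. At 1 h DAL7 itself had risen by 4.08 ± 0.42 to 420.1 TPM, against 45.9 for MLS1, and at 4 h it was back at 60.1 TPM, a log2 difference from 1 h of −2.79 ± 0.51. In the lawn DAL7 had 35 reads beside 2738 of MLS1. The coding regions are similar and reads were short, so reads may have been counted for the wrong copy. How many DAL7 reads were counted as MLS1 at 1 h or 4 h was not tested.

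For citrate synthase, CIT2 exceeded the mitochondrial CIT1 in every library, by 1.19 and 1.29 times in log phase, 4.08 and 3.97 at saturation, 1.63 and 1.73 under rapamycin and 2.12 in the lawn. The ratio was thus highest in saturated cultures, where CIT1 rose by 0.87 ± 0.31, and lower in the lawn, where CIT1 rose by 2.47 ± 0.37. CIT3, a mitochondrial citrate and methylcitrate synthase, rose by 6.53 ± 0.44 in the lawn and by 3.10 ± 0.43 at 1 h of rapamycin. Malate dehydrogenase moved the other way. MDH2 per mitochondrial MDH1 was 1.48 and 1.57 in log phase, 0.332 and 0.456 at saturation, 0.508 and 0.265 under rapamycin and 0.227 in the lawn. MDH1 rose in the lawn by 2.41 ± 0.33 and the peroxisomal MDH3 by 1.23 ± 0.39, so the cytosolic gene was the only one of these 3 not to pass there.

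IDP2 stayed below the mitochondrial IDP1 throughout. It had 0.0249 and 0.0298 TPM per TPM of IDP1 in log phase, 0.0638 and 0.116 at saturation, 0.00668 at 1 h of rapamycin, where IDP1 had risen by 2.36 ± 0.37, 0.0568 at 4 h and 0.756 in the lawn. The peroxisomal IDP3 rose by 2.80 ± 0.44 in the lawn and by 1.71 ± 0.40 in saturated cultures. ICL1 and ICL2, the mitochondrial methylisocitrate lyase, were close in log phase (1.94 and 1.03 times) and under rapamycin (0.878 and 0.768). ICL1 exceeded ICL2 by 4.44 and 2.55 times at saturation and by 19.8 times in the lawn. Of the 11 isozymes and related enzymes examined, 6 rose and 1 fell in the lawn (median log2 change 1.23, against 0.04 over all genes), 3 and 2 in saturated cultures (−0.06 against 0.10) and 2 and 1 at 4 h of rapamycin (0.76 against 0.06). At 1 h of rapamycin 4 rose (0.61 against 0.04). The shares of all genes that rose and fell were 20.7% and 20.9% in the lawn, 27.9% and 25.1% in saturated cultures, and 14.8% and 11.5% at 4 h, with 9.18% risen at 1 h, so the 3 risen isozymes at saturation lie near the background. In saturated cultures the mitochondrial aconitase ACO1 fell (−2.97 ± 0.37). Without log-phase replicate 1 the isozyme rises in saturated cultures and at 4 h no longer passed, and fewer of all genes rose in both. More isozymes, and more of all genes, rose at 4 h when either saturated library was left out.

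**Figure D3:**
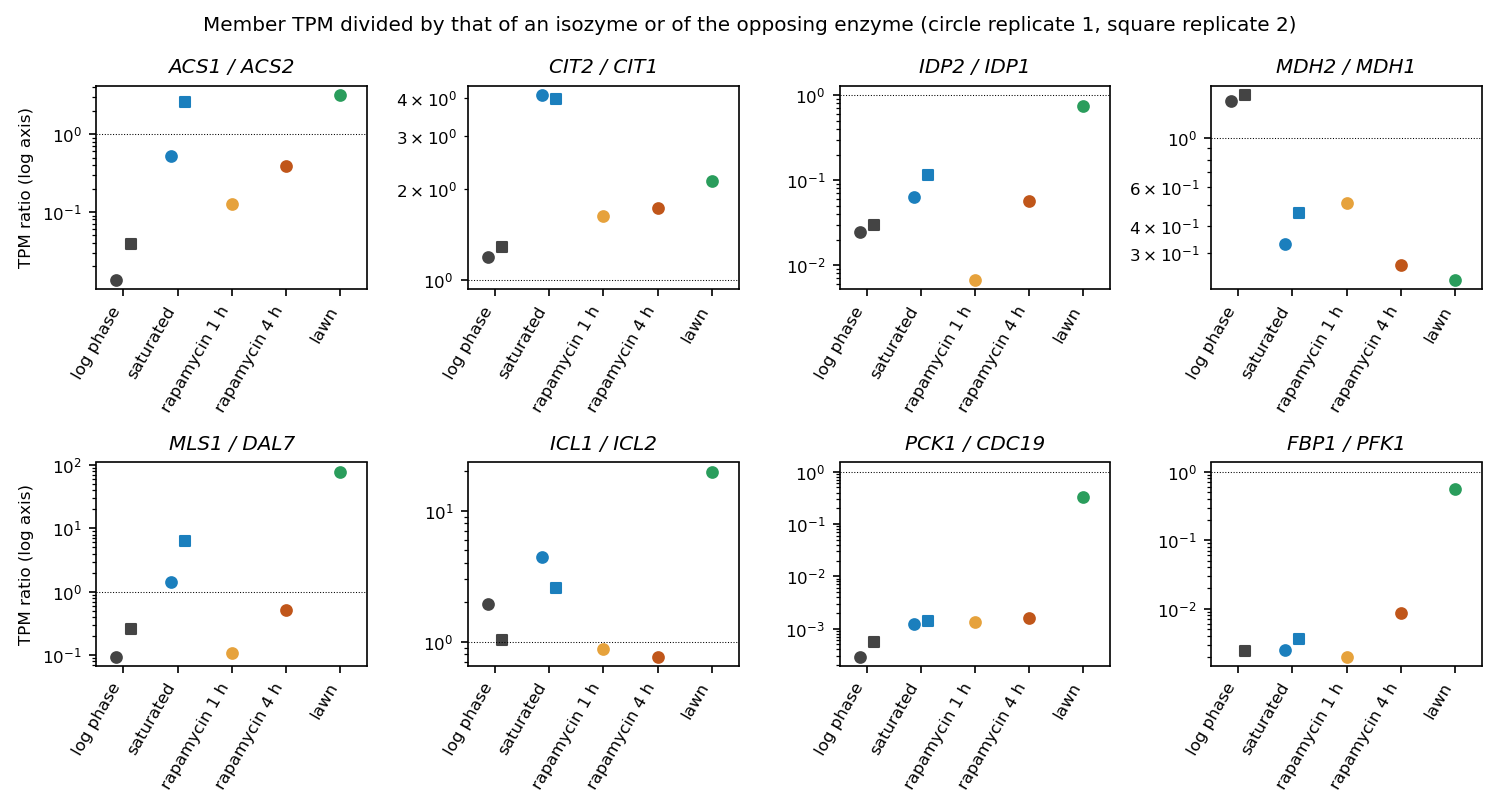
TPM of a gene divided by TPM of an isozyme (ACS2, CIT1, IDP1, MDH1, DAL7, ICL2) or of the enzyme of the opposing glycolytic step (CDC19, PFK1), per library on log axes, with the dotted line at equal TPM where it falls within the axis; log-phase replicate 1 is not drawn for FBP1, which had 0 reads. The lawn point is the highest in every panel but those of CIT2, where saturated cultures are highest, and MDH2, where log phase is.

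At the opposing steps of glycolysis and at the supply of oxaloacetate, the lawn also stood apart. There PCK1 reached 0.327 TPM per TPM of CDC19, the main pyruvate kinase, and FBP1 reached 0.568 per TPM of PFK1, a phosphofructokinase subunit. In every other library these ratios were at most 0.00163 and 0.00856. CDC19 (−2.98 ± 0.63), PFK2 (−1.64 ± 0.44) and PFK1 (−1.56 ± 0.46) fell in the lawn. Without either log-phase replicate, 1 gene of this list was called lower there in place of 3. PYC1, a pyruvate carboxylase that makes the oxaloacetate used by Pck1, rose by 3.13 ± 0.48 to 8246 lawn reads, the second-highest count of any gene there. It also rose at 1 h (2.71 ± 0.48) and 4 h of rapamycin (1.56 ± 0.47), where PCK1 did not pass. PYC2 is a close copy, so reads may have been exchanged between them in counting.

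The level of fructose-2,6-bisphosphate, which activates phosphofructokinase and inhibits fructose-1,6-bisphosphatase, is set by PFK26 and PFK27, which make it, and FBP26, which removes it. PFK27 rose by 4.11 ± 0.39 in saturated cultures, to 1212 and 652 CPM from 54.8 and 53.2, and the lawn differed from those cultures by −5.17 ± 0.57. PFK26 and FBP26 rose in all 4 conditions, by 2.45 ± 0.36 and 2.31 ± 0.31 in the lawn. Over the 9 genes of these steps, 3 rose and 3 fell in the lawn (median 0.43, against 0.04 over all genes). At saturation 3 rose (0.82 against 0.10), at 1 h 4 (−0.01 against 0.04) and at 4 h 3 (0.42 against 0.06), with 0 fallen by edgeR. Set against all genes, of which 20.7% rose and 20.9% fell in the lawn and 27.9% rose at saturation, those counts are close to the background, and at 1 h and 4 h 9.18% and 14.8% of all genes rose. DESeq2 called 1 lower at 1 h and 2 at 4 h, and 2 were lower at each time when either saturated library was left out. At 1 h 2 rose without log-phase replicate 1, and at saturation 5 without saturated replicate 1. At 1 h the others risen were PYK2, the minor pyruvate kinase (1.90 ± 0.44), PFK26 (1.65 ± 0.35) and FBP26 (1.57 ± 0.30).

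Among 21 genes that regulate glucose derepression or CIT2 was CAT8, which had 13.1 and 20.3 CPM in log phase, 12.5 and 40.2 at saturation, 78.8 and 199.3 at 1 h and 4 h of rapamycin and 627 in the lawn. It rose by 2.29 ± 0.53 at 1 h, 3.63 ± 0.54 at 4 h and 5.28 ± 0.56 in the lawn, but stood at 0.51 ± 0.53 in saturated cultures (edgeR, Benjamini-Hochberg adjusted p = 0.439).

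SIP4, which binds the same promoter element as Cat8, had 5.37 and 6.58 CPM in log phase, 120.5 and 45.2 at saturation, 19.1 and 56.0 under rapamycin and 639 in the lawn. It rose by 3.89 ± 0.49 in saturated cultures, 3.27 ± 0.52 at 4 h and 6.78 ± 0.55 in the lawn. ADR1 passed in the lawn (2.02 ± 0.43), and HAP4, the limiting subunit of the activator of respiratory genes, rose there by 4.27 ± 0.37, in saturated cultures by 2.82 ± 0.33 and at 4 h by 1.71 ± 0.36.

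Of the genes with a part in repression, MIG1, the main repressor acting under glucose, had values between −0.58 and 0.91 and passed in the lawn alone (0.91 ± 0.30). MIG2, a related repressor induced by glucose, rose in saturated cultures by 2.04 ± 0.38 and fell in the lawn (−3.19 ± 0.65), to 10 reads. HXK2, the hexokinase with a role in repression, fell in the lawn (−4.33 ± 0.52), at 4 h (−1.37 ± 0.44) and in saturated cultures (−0.92 ± 0.34). Between lawn and saturated cultures MIG2 differed by −5.23 ± 0.67, MIG3 by −2.44 ± 0.46, HXK2 by −3.41 ± 0.50 and CAT8 by 4.77 ± 0.56, and all 4 passed.

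Of the 21 regulators, 11 rose and 2 fell in saturated cultures (median 0.84 against 0.10 for all genes), 1 and 0 at 1 h (0.09 against 0.04), 4 and 1 at 4 h (0.43 against 0.06) and 6 and 3 in the lawn (0.69 against 0.04). Over all genes 27.9% rose and 25.1% fell at saturation, 9.18% and 11.5% at 1 h, 14.8% and 11.5% at 4 h, while for the lawn the shares were 20.7% and 20.9%, so the counts at 1 h, at 4 h and in the lawn lie near or below the background. RTG3, the partner of Rtg1, rose in saturated cultures by 1.93 ± 0.44. In saturated cultures the risen numbered 7 with plain library totals, 7 without log-phase replicate 1, 6 on removal of its partner, and in the lawn 10 without either saturated replicate and 12 with plain library totals. Those fallen in saturated cultures numbered 0 and 1 with log-phase replicate 1 and replicate 2 left out in turn, and in the lawn 5 without either saturated replicate. At 4 h the risen numbered 2 without log-phase replicate 1, and at 1 h 2 or 3 without log-phase replicate 2 or either saturated replicate.

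**Figure D4:**
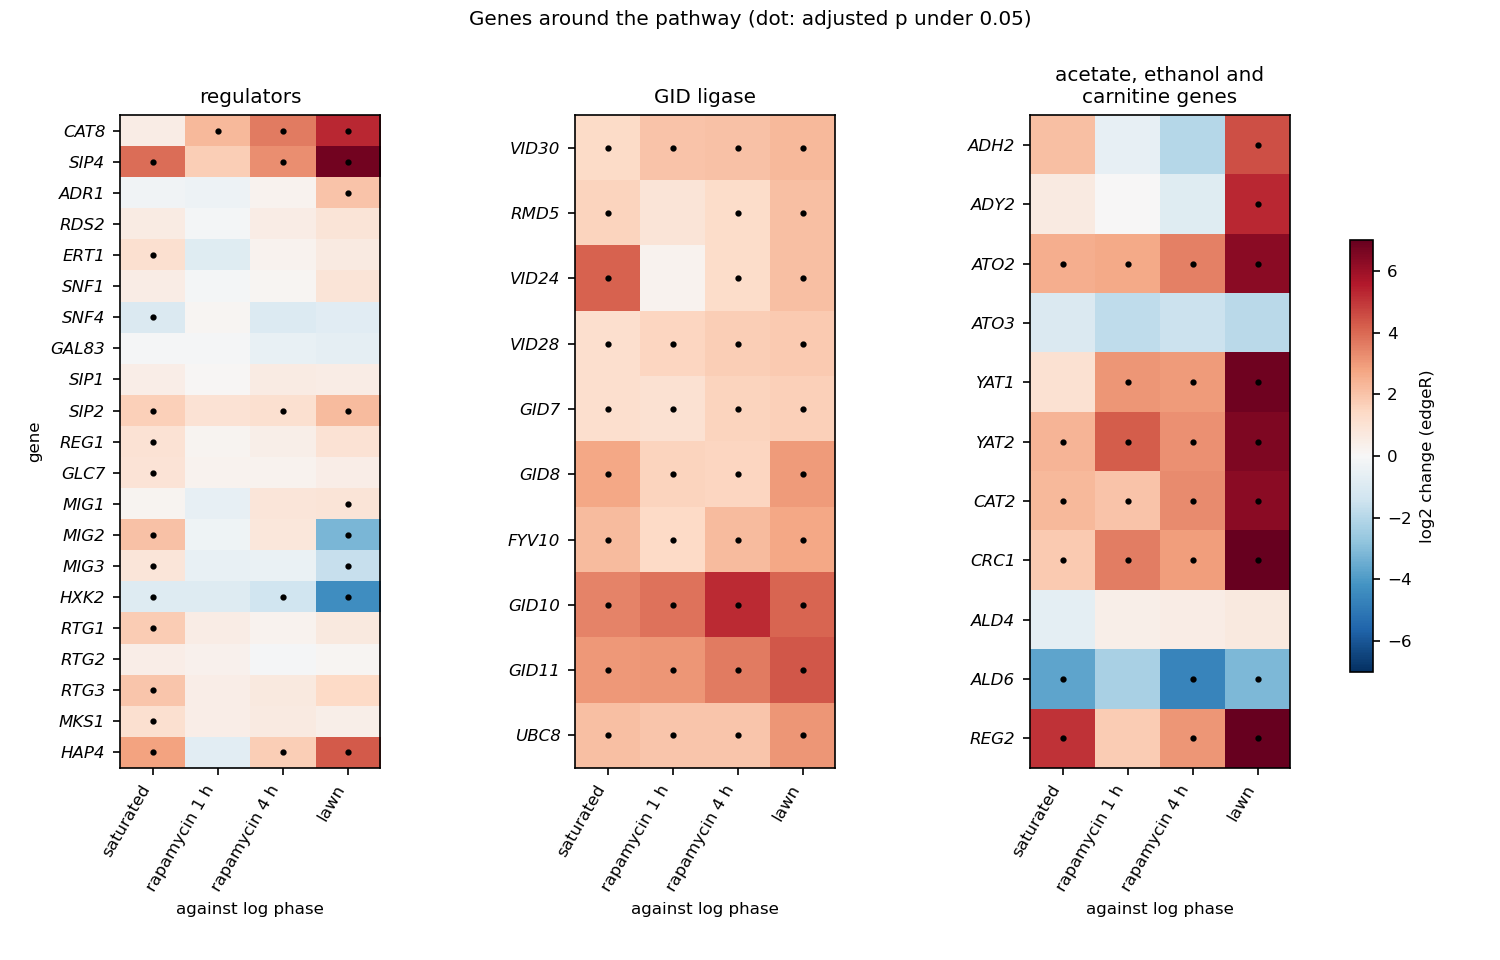
Log2 change against log phase (colour) of 21 regulators, 10 genes of the GID ubiquitin ligase and 11 genes of acetate, ethanol and carnitine metabolism in 4 conditions; a dot marks an edgeR adjusted p under 0.05. All 10 GID genes carry a dot in saturated cultures, at 4 h of rapamycin and in the lawn.

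When glucose returns, the GID ubiquitin ligase marks Fbp1, Pck1, Icl1 and Mdh2 protein for destruction, with Gid4 (VID24) as the subunit that recognises them. All 10 of its genes examined rose at saturation, at 4 h of rapamycin and in the lawn, and 8 rose at 1 h, with median log2 changes of 2.16, 1.83, 2.48 and 1.54 against 0.10, 0.06, 0.04 and 0.04 for all genes. In the same order, 27.9%, 14.8%, 20.7% and 9.18% of all genes rose. VID24 had 29.8 and 48.8 CPM in log phase, 788 and 562 at saturation, 44.8 and 93.6 under rapamycin and 166 in the lawn. It rose by 4.13 ± 0.37 in saturated cultures, 1.28 ± 0.40 at 4 h and 2.10 ± 0.40 in the lawn, and the lawn differed from saturated cultures by −2.03 ± 0.44. VID24 was thus highest in the saturated libraries, while ICL1, PCK1 and FBP1 were highest in the lawn.

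Of the alternative recognition subunits, GID11 rose by 3.01 ± 0.51 in saturated cultures, 3.11 ± 0.56 and 3.66 ± 0.57 under rapamycin and 4.35 ± 0.58 in the lawn, and GID10 by 3.47 ± 0.78, 3.79 ± 0.75, 5.21 ± 0.73 and 4.05 ± 0.84 from 5 and 2 reads in log phase. UBC8, the ubiquitin-conjugating partner, rose by 1.95 to 3.07. Of the subunits of the core complex, GID8 rose by 2.72 ± 0.40 in saturated cultures and 2.97 ± 0.44 in the lawn, FYV10 by 2.23 ± 0.38 at 4 h and 2.68 ± 0.39 in the lawn, and VID30 by 1.97 ± 0.31 at 1 h and 2.03 ± 0.31 at 4 h. Without log-phase replicate 1, 5 of the 10 rose at 1 h and 6 at 4 h.

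Of the 11 genes listed for acetate, ethanol and carnitine metabolism, which include REG2, ATO2 and ATO3, 8 rose and 1 fell in the lawn (median 6.30 against 0.04 for all genes), 5 and 1 in saturated cultures (1.85 against 0.10), 5 and 0 at 1 h (1.8 against 0.04) and 6 and 1 at 4 h (2.90 against 0.06). Among all genes 20.7% rose and 20.9% fell in the lawn, 27.9% and 25.1% at saturation, 9.18% and 11.5% at 1 h, and 14.8% and 11.5% at 4 h. In saturated cultures 8 rose without saturated replicate 1. The carnitine shuttle, which carries acetyl groups into mitochondria, was high in the lawn, with CRC1 up by 7.19 ± 0.36, YAT1 by 6.81 ± 0.74, YAT2 by 6.52 ± 0.50 and CAT2 by 6.30 ± 0.57. It was also up after 1 h of rapamycin, by 3.56 ± 0.35, 3.11 ± 0.67, 4.23 ± 0.46 and 1.99 ± 0.54, when ICL1 and PCK1 did not pass. REG2, a regulatory subunit of the Glc7 phosphatase, rose by 7.14 ± 0.61 in the lawn and 5.08 ± 0.60 in saturated cultures, and ATO2, a putative ammonium exporter gene, rose in all 4 conditions, by 2.55 to 6.31. ALD6, the cytosolic acetaldehyde dehydrogenase that makes acetate on glucose, fell in the lawn (−3.15 ± 0.76), at 4 h (−4.6 ± 0.82) and in saturated cultures (−3.67 ± 0.58). It had 1910 and 2773 CPM in log phase, 83.8 and 291.5 at saturation, 484.4 at 1 h, 96.7 at 4 h and 264 in the lawn. At 1 h its change of −2.27 ± 0.72 did not pass (edgeR adjusted p = 0.0533). ADH2, the alcohol dehydrogenase that consumes ethanol, rose in the lawn by 4.52 ± 1.01 on 97 reads. With any 1 replicate left out, 2 genes of this list were called lower in the lawn and 2 at 1 h, and 3 were lower at 4 h when either saturated library was left out. In saturated cultures 2 were lower without log-phase replicate 1, and removal of saturated replicate 2 gave 4.

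The profile shared by the 10 genes was taken as their mean log2 level in each of the 7 libraries after centring each gene. IDP2 (root mean square distance 0.41), PCK1 (0.52) and ACS1 (0.54) lay nearest to it and MDH2 (1.99), CIT2 (1.20) and MLS1 (1.12) farthest, where the median of all genes was 1.94. The mean includes each of the 10 genes itself, which shortens their distances relative to those of other genes. MDH2 was thus at least as far from the shared profile as the median gene. Of genes outside the 10, the nearest were CAT2 (0.52), AGX1 (0.55), FOX2 (0.61), PRR2 (0.62), ZNF1 (0.63), ATO2 (0.65), ACH1 (0.65) and SEO1 (0.68). CAT2 is carnitine acetyltransferase, AGX1 makes glycine from glyoxylate, FOX2 is an enzyme of peroxisomal fatty acid oxidation, PRR2 a protein kinase gene, ZNF1 a zinc cluster transcription factor, ACH1 a mitochondrial CoA transferase acting on acetyl-CoA, and SEO1 a putative permease. Their lawn changes ran from 4.13 for FOX2 to 6.31 for ATO2. The libraries share groups and the lawn carries most of the range, so this is a description. Leaving out a replicate kept 5 to 7 of these 8.

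**Figure D5:**
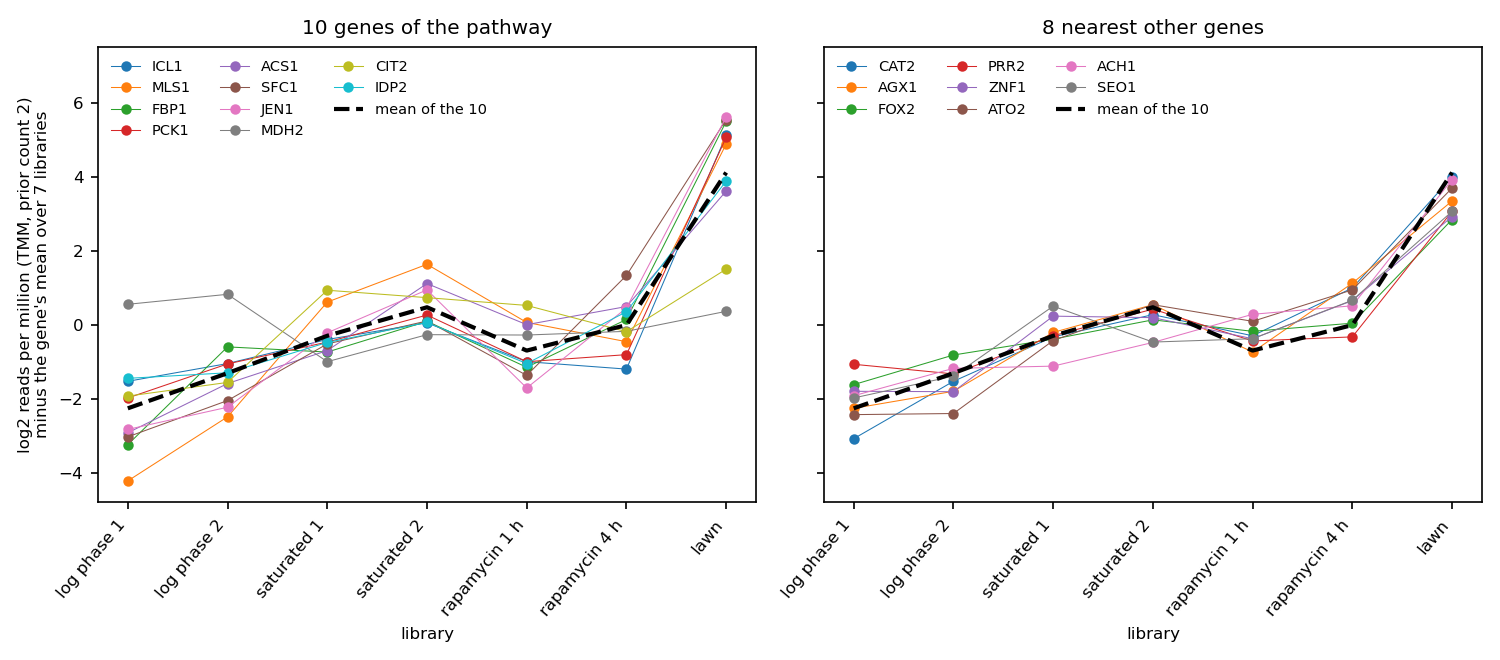
Log2 CPM minus each gene's mean over the 7 libraries, for the 10 pathway genes (left) and the 8 other genes with the nearest profile (right); thin lines only join the values of a gene, and the dashed line is the mean of the 10. MDH2 has its highest points in log phase, and the other 9 genes and the 8 nearest genes have theirs in the lawn.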

How the data were processed

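RNA was measured in 7 libraries, each with deposited values for 6665 genes and, separately, 300 introns. Per the labels' protocols, total RNA was depleted of ribosomal RNA, fragmented, size-selected and sequenced as short single reads. The submitters' processing notes name the tools cutadapt 1.8 and STAR 2.4 and the build R64 (sacCer3). Not given in the sources used here are the counting tool, annotation and strand use. Per the file headers, the deposited tables give the read count of each feature (raw, whole numbers) and its TPM, which over genes and introns sums to 1000000 in each library. The 10 genes have no intron in the intron tables, which were used only for that sum and check.

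Counts were tested with edgeR 4.0.16 (quasi-likelihood, R 4.3.3) in a joint fit over the 5 groups (7 libraries), using TMM scaling, the edgeR low-count filter (5827 genes tested, all 10 genes among them) and two-sided Benjamini-Hochberg adjustment over all genes at 0.05. There were 2 residual and 6.94 prior degrees of freedom, so groups of 1 library borrow the spread of the pairs. The SE of a log2 change was calculated as its absolute value divided by the square root of the F statistic of the quasi-likelihood test. FBP1 reached the filter's minimum of 2.14 CPM in 3 libraries, SFC1 in 5 and the others in 7. Log2 levels for profiles used a prior count of 2. Symbols and positions come from a RefSeq table of R64, by locus tag (5989 genes matched, 676 not), in which no other gene overlaps the 10. Alternatives were DESeq2 1.42.0, its size factors, plain totals, no filter, each replicate left out and a replicate block. Members and the 5 lists were chosen with earlier results of these data known. Named beside the 10 were up to 4 called genes of each list per condition by size of change, matching isozymes, CAT8, SIP4, ADR1, MIG1 and VID24, and the 8 nearest profiles; others were chosen after their values were seen. Steps were tested on simulated data. Promoter motifs were not analysed here. Replicates differed by more than counting error: chi-square over degrees of freedom was 15.7 for the log-phase pair and 34.7 for the saturated pair. This cannot tell separate cultures from technical repeats. The result for 1 gene of the lists is not reported here.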

Additional observations from a re-analysis of the deposited data

Results flagged for a closer look

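Between the rapamycin times, 1 of the 10 genes and 2 of the 62 genes of the surrounding lists differed by the direct edgeR test of 4 h against 1 h, with 1 library at each time. Over all 5827 genes tested 6.26% differed, so these counts lie near or below the background. SFC1 was higher at 4 h by a log2 value of 2.85 (172 reads against 32). HAP4 was higher at 4 h by 2.44 (1600 reads against 399). DAL7 was lower at 4 h, at −2.79 (611 reads against 5710).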

How the results depend on the processing

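The 9 rises in the lawn against log phase and the counts of lawn against saturated cultures and of 4 h of rapamycin against log phase stayed within 1.5 times in every alternative setting. Leaving out a replicate moved the number of genes called from 5 to 10 for saturated cultures, from 1 to 5 at 1 h of rapamycin, from 2 to 4 for 4 h against 1 h and from 2 to 6 for 4 h against saturated cultures. With plain library totals 4 were called at 1 h and 2 for 4 h against saturated cultures. For 4 h against 1 h, 2 were called with DESeq2 size factors, 2 with the DESeq2 test and 3 without the low-count filter. The DESeq2 test called 2 for 4 h against saturated cultures, both lower. The number called among all genes moved as well, so these counts are not a result about the 10 genes alone. Without either saturated replicate, more of all genes were called at 1 h, for 4 h against 1 h and for 4 h against saturated cultures. The cause was not tested.

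Log2 changes that turned sign were ones that had not passed. They were ACS1 for 4 h against saturated cultures (−0.00 with DESeq2 size factors, −0.04 with the DESeq2 test, and −0.64 to 1.26 with a replicate left out), JEN1 in the same comparison (−0.02 with the DESeq2 test, −0.51 to 0.75 with a replicate left out), FBP1 at 1 h (−0.68 to 5.87 likewise), ICL1 at 4 h (−0.16 to 0.27 likewise, −0.05 without either saturated replicate), MDH2 in the lawn (0.09 with plain totals) and MDH2 for 4 h against 1 h (−0.02 with DESeq2 size factors or test, −0.04 to 0.10 with a replicate left out).

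With the replicate block, in the 4 log-phase and saturated libraries, 9 genes were called (8 risen, 1 fallen) of 9 tested genes, as FBP1 was removed by the filter. The replicates share only a number; over all genes the differences of replicate 2 from replicate 1 in both groups had a Pearson correlation of 0.16. Plain library totals moved the median of all genes from 0.04 to 0.47 in the lawn and from −0.05 to 0.69 for lawn against saturated cultures. FBP1 and SFC1 had 4 and 7 reads over the log-phase pair, so counting error limits their changes.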
